A study of Mus musculus with 2 samples.

Results

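The enzymes and carriers that bring pyruvate and glutamine carbon into the citrate cycle, run the cycle and take its carbon out again were examined in mouse lung cancer cells. The 29 genes were taken by name from a list of pyruvate entry, citrate cycle, glutaminolysis, mitochondrial phosphoenolpyruvate carboxykinase (PEPCK) and carrier genes. The rule holds no measured value, but the list was drawn up with earlier results of these data known. All 29 were found among the 23183 genes of the deposited values, and all had a mean level of at least 1 FPKM (mapped fragments, scaled for the length of the transcript and the depth of the library).

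KPR- is an immortalized line from a lung cancer of a KPRL/F mouse, in which adenoviral Cre under the CMV promoter had activated K-Ras LSL-G12D, deleted p53 flox/flox and Runx3 flox, and switched on Tomato. The other Runx3 allele is held off by a Frt-Stop-Frt cassette, which the tamoxifen-dependent recombinase Flp ERT2 removes when 4-OHT, an active form of tamoxifen, is given, and the cells are then named KPRrestored. Poly(A) RNA of 1 KPR- library (0 h, genotype RUNX3 -/-) and 1 KPRrestored library (16 h, genotype RUNX3 -/+) was sequenced. The labels list 1 μM 4-OHT for both, and whether the line is 1 clone is not stated. Since each condition has 1 library, a difference has no replicate check, no test was made, and time, 4-OHT and Runx3 restoration cannot be told apart.

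Pyruvate enters mitochondria through a carrier and becomes either acetyl-CoA, through the pyruvate dehydrogenase complex, or oxaloacetate, through pyruvate carboxylase. Glutamine feeds the citrate cycle as 2-oxoglutarate, and malic enzyme and mitochondrial PEPCK draw malate and oxaloacetate back out as pyruvate and phosphoenolpyruvate. Some tumours driven by oncogenic K-Ras are known for their use of glutamine carbon in this cycle, which was not measured here.

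*Runx3* itself was at 0.348 FPKM in KPR- and 0.349 FPKM in KPRrestored, about 28 and 29 fragments, so the level per gene does not check the labels. The study checked restoration in such cells by other means, which were not analysed here. The libraries are named here as labelled, and levels are given first for the library labelled KPR- and then for the library labelled KPRrestored. Both were of like depth, about 21.8 M and 22.4 M fragments as estimated from the steps of low FPKM values. Of the 8 epithelial markers, *Krt8*, *Krt18* and *Krt19* were each above 1000 FPKM in both libraries, while *Sftpc*, a marker of alveolar type II cells, and *Sftpb*, another surfactant gene, were listed at 0 in both. The 5 immune markers summed to 5.77 and 7.98 FPKM with *Cd3e* at 0, though *Cd68* was higher in KPRrestored (3.08 and 6.78 FPKM) and *Csf1r* lower (2.68 and 1.19 FPKM). The 3 endothelial markers summed to 1.16 and 2.22 FPKM, and the 5 fibroblast markers summed to 12.7 and 5.35 FPKM, nearly all of it *Col1a1* (12.2 and 4.21 FPKM), while *Dcn* was at 0.173 and 0.742 FPKM. In such bulk RNA, fewer cells of a type and less RNA per cell cannot be told apart.

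*Pck2*, which encodes mitochondrial PEPCK, was the single gene of the list with a much higher level in KPRrestored, at 18.01 and 82.2 FPKM. At the other end, *Suclg2*, the GTP-forming subunit of succinyl-CoA ligase, and *Me2*, mitochondrial malic enzyme, were lower, at 31.7 and 20.99 FPKM and at 37.5 and 25.9 FPKM. The other 26 genes lay between -0.5 and 0.5 on the log2 scale. A difference of 0.5 or more in log2(FPKM + 0.005), KPRrestored minus KPR-, was used as the threshold, because no test was possible. Among the 11231 genes whose mean FPKM reached 1, 12.1% were higher and 9.29% were lower by this rule, against 3.45% and 6.90% of the 29 genes. Over all 23183 genes, which adds those with a lower mean, the shares were 13.8% higher and 12.9% lower.

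The list had little net difference. Of the 29 genes, 14 were above 0 and 15 were below 0, and the median log2 difference was -0.021, with quartiles of -0.20 and 0.17. The same quantities over the 11231 genes were 0.0086, -0.23 and 0.27. The summed level of the 29 genes was 1833 and 1874 FPKM, and without *Pck2* it was 1815 and 1792 FPKM. Ordered by level, the genes kept nearly the same places in both libraries apart from *Pck2*, with Spearman's rho across the genes of 0.895 for all 29 and 0.978 for the 28 others. *Mdh2* was the most abundant at 347 and 362 FPKM, and *Pcx* the least at 2.03 and 1.71 FPKM.

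**Figure D1:**
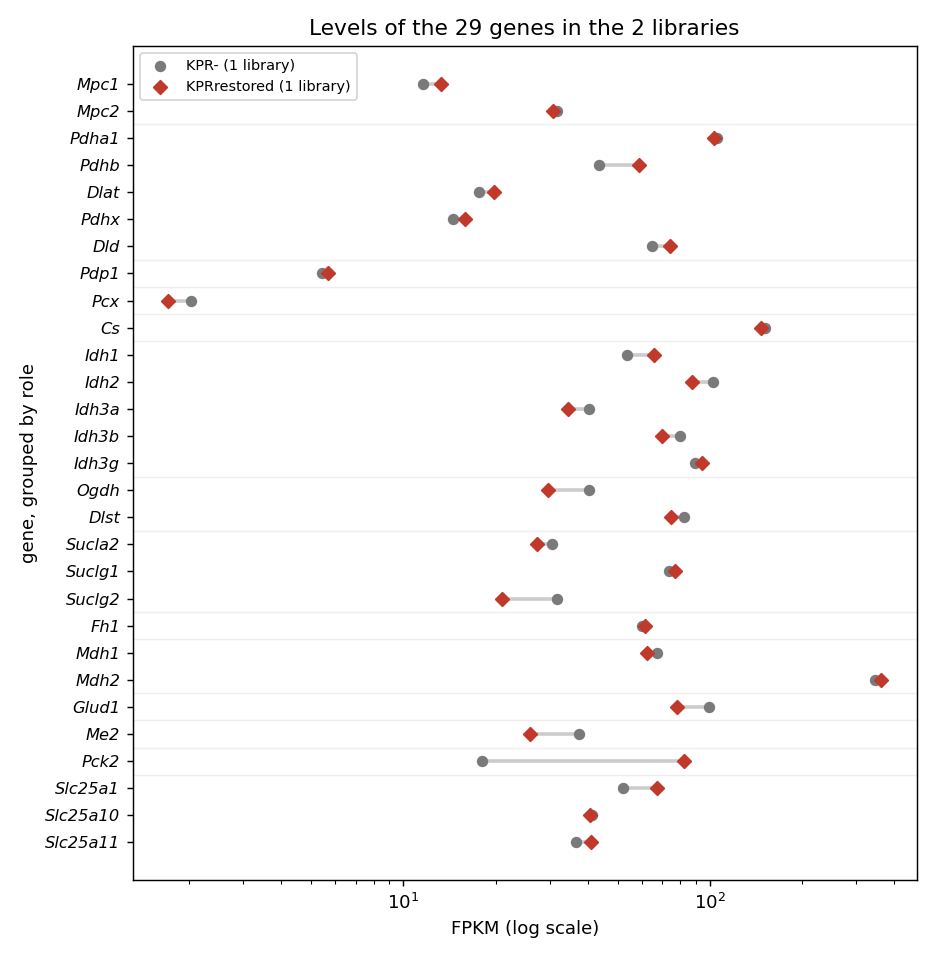
Level of each of the 29 genes in FPKM on a log axis, with a grey circle for the KPR- library and a red diamond for the KPRrestored library, grouped by role. *Pck2* goes from 18.01 to 82.2 FPKM, whereas most other genes have both symbols close together.

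The fragments behind each gene give the precision of counting. With fragment numbers estimated from FPKM, transcript length and depth, the 95% counting interval of the log2 difference (Clopper-Pearson, counting error only) held 0 for 11 of the 29 genes. It lay above 0 for 8 genes and below 0 for 10 genes. Among the 11144 genes whose mean FPKM reached 1 and that had such an interval, 34.3% lay above 0 and 33.0% below 0, so that intervals away from 0 were common at this depth and say nothing of variation between cultures.

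**Figure D2:**
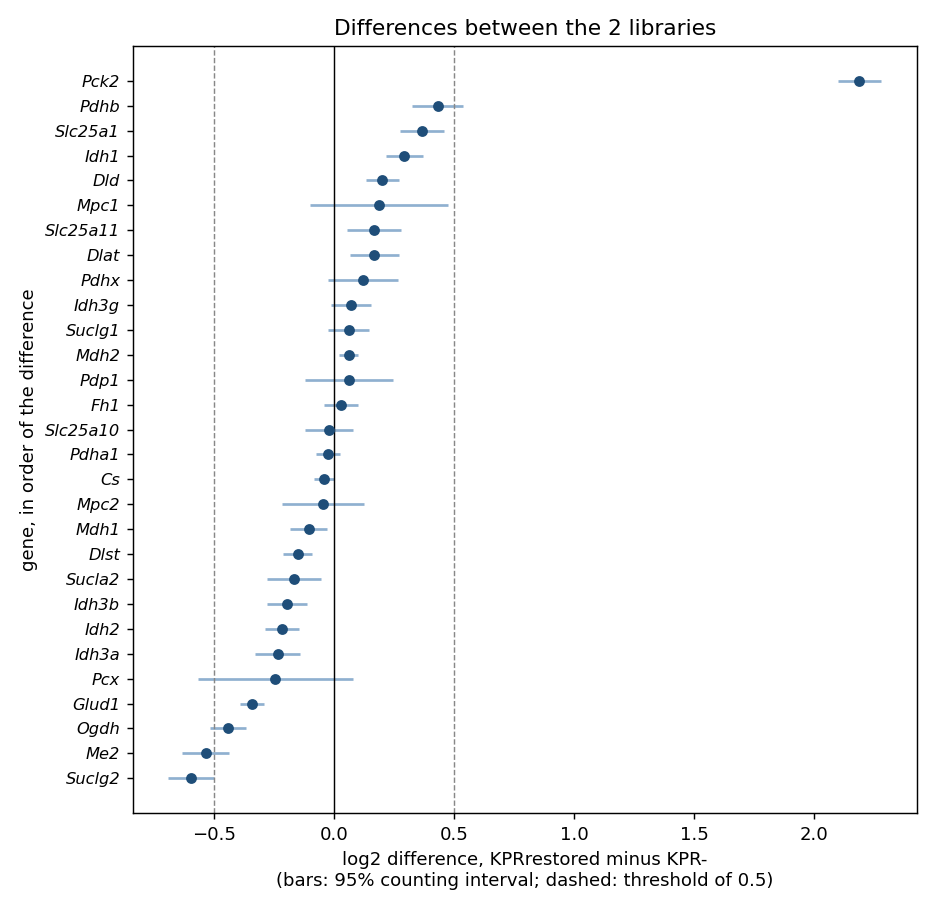
Log2 difference of each of the 29 genes, KPRrestored minus KPR-, in order of size, with 95% counting intervals as bars and the threshold of 0.5 as dashed lines. *Pck2* stands at 2.19, the next gene, *Pdhb*, at 0.43, and *Suclg2* and *Me2* lie beyond the lower threshold.

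Mitochondrial PEPCK turns oxaloacetate into phosphoenolpyruvate, the step that leads citrate cycle carbon towards glycolytic intermediates, serine and glycerol. *Pck2* lies on chromosome 14 from 55540266 to 55551242 on the plus strand of GRCm38. It had about 1253 fragments in KPR- and 5875 in KPRrestored, a log2 difference of 2.19 (95% counting interval 2.10 to 2.28), which is 4.56-fold. By size of increase it was 42nd of the 11231 genes. Its place among the 29 genes by level moved from 24th to 6th, and its share of their summed FPKM went from 0.982% to 4.39%. With the shortest coding transcript in place of the longer one used for these numbers, fewer fragments were estimated and the interval was 1.89 to 2.51. The cytosolic counterpart, *Pck1*, was listed at 0 in both libraries, so that *Pck2* was the PEPCK transcript measured in these cells.

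*Pck2* has the largest difference of the list and *Pck1* is its closest paralog, so the bases before the start of each are shown to set the promoters of both side by side (RefSeq, GRCm38.p6). That of *Pck2* is chr14:55540016-55540265 on the plus strand, and its capitals mark TTACATCA. These letters match, on the other strand, TGATGNAA, the core of the composite element that ATF4 binds with C/EBP proteins. That of *Pck1* is chr2:173152823-173153072 on the plus strand, and its capitals mark ACCACA, which matches TGTGGT, the letters that RUNX proteins bind, on the other strand.

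Pck2: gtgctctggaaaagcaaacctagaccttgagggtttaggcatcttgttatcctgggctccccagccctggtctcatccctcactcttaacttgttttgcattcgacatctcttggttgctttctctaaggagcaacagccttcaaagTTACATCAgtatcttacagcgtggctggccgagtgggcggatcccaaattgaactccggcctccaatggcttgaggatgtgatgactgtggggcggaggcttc

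Pck1: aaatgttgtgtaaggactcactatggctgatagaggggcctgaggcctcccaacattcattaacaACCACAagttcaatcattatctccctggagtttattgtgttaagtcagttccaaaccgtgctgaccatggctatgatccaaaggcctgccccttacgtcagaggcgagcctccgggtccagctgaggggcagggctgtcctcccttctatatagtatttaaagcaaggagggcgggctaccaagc

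The promoter windows searched ran from 250 bases before to 50 bases after each start, on both strands, and 26 of the 29 genes had 1 or more windows. TGATGNAA was in 3.97% of all 32851 windows and, within the list, in *Pck2* alone, 103 bases before its start. ATF4 is a transcription factor of the amino acid stress response, and *Pck2* is known as one of its target genes. *Atf4* transcript, looked up after its values were seen, was at 145 and 446 FPKM, and whether that bears on *Pck2* was not tested. TGTGGT was in 16.8% of all windows and in those of *Mdh2*, *Pcx* and *Pdha1*, all of which differed by less than 0.5. It was also found for 7 of 25 other pathway genes with a window, a list described below. Of these 7, *Pdk4* alone passed the threshold, with a log2 difference of -1.24 at a mean of 0.67 FPKM. Within the 29 genes, the NRF1 core CGCATGCG, in 1.87% of windows, was found for *Ogdh* alone. So was AAGGTCA, the letters that oestrogen-related receptors bind, in 4.72% of windows. The percentages are shares of windows, whereas matches are counted by gene, and a gene can have more than 1 window. The 26 genes had 34 windows and the 25 other pathway genes had 32, so the 2 measures are not alike. A match is a run of letters and not a measured binding site.

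At pyruvate entry, 9 genes were measured and none passed the threshold in either direction. Their median log2 difference was 0.12, and the counting interval lay above 0 for 3 of the 9 and below 0 for none. The mitochondrial pyruvate carrier is built of both *Mpc1* and *Mpc2*. *Mpc1* was at 11.6 and 13.2 FPKM, a log2 difference of 0.19 with an interval of -0.10 to 0.47. *Mpc2* was at 31.7 and 30.7 FPKM, with an interval of -0.22 to 0.12, so neither difference was larger than counting error.

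The 5 genes of the pyruvate dehydrogenase complex summed to 246 and 272 FPKM, and its subunits did not differ alike. *Pdhb*, the beta subunit of the decarboxylating enzyme E1, was at 43.7 and 58.9 FPKM, a log2 difference of 0.43 with an interval of 0.32 to 0.54. *Pdha1*, the alpha subunit of the same enzyme, was at 106 and 104 FPKM, with an interval of -0.077 to 0.026. The ratio of *Pdhb* to *Pdha1* was therefore 0.414 in KPR- and 0.568 in KPRrestored. The core acetyltransferase E2, *Dlat*, was at 17.6 and 19.8 FPKM (log2 0.17), and *Pdhx*, which tethers the E3 enzyme to that core, was at 14.6 and 15.8 FPKM (log2 0.12). *Dld*, the E3 enzyme, is shared with the 2-oxoglutarate dehydrogenase complex and was at 64.6 and 74.2 FPKM (log2 0.20, interval 0.13 to 0.27).

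The complex is switched on by the phosphatase *Pdp1*, which was at 5.45 and 5.68 FPKM (log2 0.060, interval -0.12 to 0.24). *Pcx*, pyruvate carboxylase, which makes oxaloacetate from pyruvate, was the least abundant gene of the list in both libraries, with about 174 and 151 fragments. Its log2 difference of -0.25 had an interval of -0.57 to 0.08, wide enough to hold 0.

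Of the 14 citrate cycle genes, *Suclg2* passed the threshold and 13 did not. The median log2 difference was -0.13, the counting interval lay below 0 for 8 and above 0 for 2, and the summed level was 1252 and 1215 FPKM. *Cs*, citrate synthase, which joins acetyl-CoA to oxaloacetate, was at 152 and 148 FPKM, a log2 difference of -0.042.

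Among the isocitrate dehydrogenases, the cytosolic and the mitochondrial NADP enzyme differed in opposite directions. *Idh1*, the cytosolic enzyme, was at 53.7 and 65.8 FPKM, a log2 difference of 0.29 with an interval of 0.22 to 0.37. *Idh2*, its mitochondrial NADP counterpart, was at 102 and 87.7 FPKM, a log2 difference of -0.22 with an interval of -0.29 to -0.15. The ratio of *Idh1* to *Idh2* was 0.526 in KPR- and 0.750 in KPRrestored. The NAD enzyme that runs the cycle has a catalytic subunit, *Idh3a*, at 40.5 and 34.4 FPKM (log2 -0.24), and regulatory subunits. Of these, *Idh3b* was lower as well, at 80.2 and 69.9 FPKM (log2 -0.20), but *Idh3g* was at 89.8 and 94.3 FPKM, with an interval of -0.014 to 0.16 that held 0.

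The 2-oxoglutarate dehydrogenase complex carries out the next step. *Ogdh*, its E1 enzyme, was just inside the lower threshold at 40.2 and 29.6 FPKM, a log2 difference of -0.44 with an interval of -0.52 to -0.37. *Dlst*, its E2 enzyme, was at 82.7 and 74.5 FPKM (log2 -0.15), so the ratio of *Dlst* to *Ogdh* was 2.06 in KPR- and 2.52 in KPRrestored. *Dld*, the E3 enzyme, was higher in KPRrestored, as given above. The 3 enzymes of this complex thus did not share a direction.

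Succinyl-CoA ligase pairs an alpha subunit, *Suclg1*, with either an ATP-forming beta subunit, *Sucla2*, or a GTP-forming one, *Suclg2*. *Suclg2*, on chromosome 6 from 95473009 to 95718800 on the minus strand of GRCm38, had about 2183 and 1485 fragments and a log2 difference of -0.59, with an interval of -0.69 to -0.50. It was 722nd from the lowest of the 11231 genes, a size of decrease that many genes reached. *Sucla2* was at 30.6 and 27.3 FPKM (log2 -0.17, interval -0.28 to -0.05), and *Suclg1* was at 73.9 and 77.0 FPKM (log2 0.060). The beta subunits were at nearly the same level in KPR-, with a ratio of *Suclg2* to *Sucla2* of 1.04, and the ratio was 0.770 in KPRrestored.

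The last steps of the cycle were close to equal between the libraries. *Fh1*, fumarase, was at 60.3 and 61.5 FPKM. *Mdh2*, mitochondrial malate dehydrogenase, had a log2 difference of 0.060 with an interval of 0.019 to 0.10. *Mdh1*, the cytosolic enzyme of the malate-aspartate shuttle, was at 67.2 and 62.4 FPKM (log2 -0.11, interval -0.18 to -0.03).

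Glutamate dehydrogenase brings glutamine carbon into the cycle, and malic enzyme is 1 of the routes out of it. *Glud1*, which makes 2-oxoglutarate from glutamate, was at 99.3 and 78.3 FPKM, with about 6885 and 5582 fragments, a log2 difference of -0.34 and an interval of -0.39 to -0.29, within the threshold. *Me2*, which makes pyruvate from malate in mitochondria, had about 1986 and 1407 fragments and a log2 difference of -0.54, with an interval of -0.64 to -0.44. That interval spans the threshold, as that of *Suclg2* narrowly does. The cytosolic malic enzyme, *Me1*, was at 69.8 and 73.4 FPKM (log2 0.073). *Me2* lies on chromosome 18 from 73769903 to 73815449 on the minus strand of GRCm38 and was 915th from the lowest of the 11231 genes.

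The 3 carriers exchange metabolites of the cycle across the inner mitochondrial membrane, and none passed the threshold. *Slc25a1*, which exports citrate, was at 52.3 and 67.4 FPKM, a log2 difference of 0.37 with an interval of 0.27 to 0.46. *Slc25a11*, the 2-oxoglutarate and malate carrier, was at 36.5 and 41.0 FPKM (log2 0.17), and *Slc25a10*, the dicarboxylate carrier, was at 41.2 and 40.6 FPKM (log2 -0.021, interval -0.12 to 0.08).

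Other genes of the same pathways were taken as a list of 32 genes, of which 29 reached a mean FPKM of 1. The threshold was passed upward by 6 and downward by 4, which is 18.8% and 12.5% of the 32, beside 13.8% and 12.9% of all genes. The median log2 difference of the 32 genes was -0.12, with 12 above 0 and 19 below 0. The counting interval of 6 of the 10 genes past the threshold spanned it. *Gpt2*, mitochondrial alanine aminotransferase, which makes 2-oxoglutarate and alanine from glutamate and pyruvate, was at 5.61 and 35.7 FPKM, a log2 difference of 2.67 with an interval of 2.52 to 2.82, and was 23rd of the 11231 genes. *Gpt*, the cytosolic enzyme, was at 4.83 and 6.98 FPKM (log2 0.53, and 0.45 with a pseudocount of 1 FPKM), and *Got1*, cytosolic aspartate aminotransferase, was at 40.5 and 58.6 FPKM (log2 0.53). Both aminotransferase families thus had members above the threshold.

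*Slc1a5*, which brings glutamine into the cell, was at 45.2 and 71.5 FPKM (log2 0.66). *Gls2*, a glutaminase, did not pass the threshold, with a log2 difference of -0.064, nor did *Got2*, mitochondrial aspartate aminotransferase, at -0.31. *Slc1a5* and *Got2* thus differed in opposite directions. Also above the threshold were *Ogdhl*, a relative of *Ogdh*, at 1.90 and 3.34 FPKM, and *Pdk2*, a kinase that switches off pyruvate dehydrogenase, at 1.18 and 1.84 FPKM with only about 52 and 84 fragments and a difference of 0.38 with a pseudocount of 1 FPKM.

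Lower by the threshold were *Pdpr*, the regulatory subunit of the pyruvate dehydrogenase phosphatase (3.002 and 1.71 FPKM, log2 -0.81), and *Slc25a13*, an aspartate and glutamate carrier (18.7 and 12.6 FPKM, log2 -0.57). *Nnt*, which moves hydride from NADH to NADP, was at 31.2 and 21.9 FPKM (log2 -0.51, and -0.49 with a pseudocount of 1 FPKM). The fourth was *Pdk4*, another kinase of pyruvate dehydrogenase, at 0.944 and 0.397 FPKM, under the mean of 1 and with about 67 and 29 fragments (log2 -1.24, and -0.48 with a pseudocount of 1 FPKM). Of the succinate dehydrogenase genes, *Sdha* had a log2 difference of -0.27, *Sdhb* of 0.044, *Sdhc* of 0.28 and *Sdhd* of -0.25.

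The promoter letters TGATGNAA were also found for 2 of the 25 genes of this list that had a promoter sequence, *Got1* and *Me3*. *Got1* was above the threshold, while *Me3*, a mitochondrial malic enzyme, was nearly absent, at 0.0769 and 0.0640 FPKM. No match to these letters was found for *Gpt2*, which had a larger difference than *Pck2*. Only bases near a start were searched, and whether ATF4 acts on *Gpt2* was not tested. The matches with 12 bases on either side are shown on each gene's own strand so that the flanks can be compared, at chr14:55540151-55540182 for *Pck2*, chr19:43524688-43524719 (minus strand) for *Got1* and chr7:89632772-89632803 for *Me3*, with the matched letters in capitals.

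Pck2: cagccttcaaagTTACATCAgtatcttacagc

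Got1: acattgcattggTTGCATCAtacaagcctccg

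Me3: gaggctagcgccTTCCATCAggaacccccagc

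Where a reaction has both a cytosolic and a mitochondrial enzyme, their levels were set side by side. The ratio of *Me1* to *Me2* was 1.86 in KPR- and 2.84 in KPRrestored, and that of *Got1* to *Got2* was 0.265 and 0.474. Like *Idh1* to *Idh2*, both ratios were therefore higher towards the cytosolic enzyme in KPRrestored. The ratio of *Mdh1* to *Mdh2* was 0.194 and 0.173, and that of *Gpt* to *Gpt2* was 0.860 and 0.195. The PEPCK and alanine aminotransferase reactions were those with a higher mitochondrial enzyme in KPRrestored by more than the threshold.

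**Figure D3:**
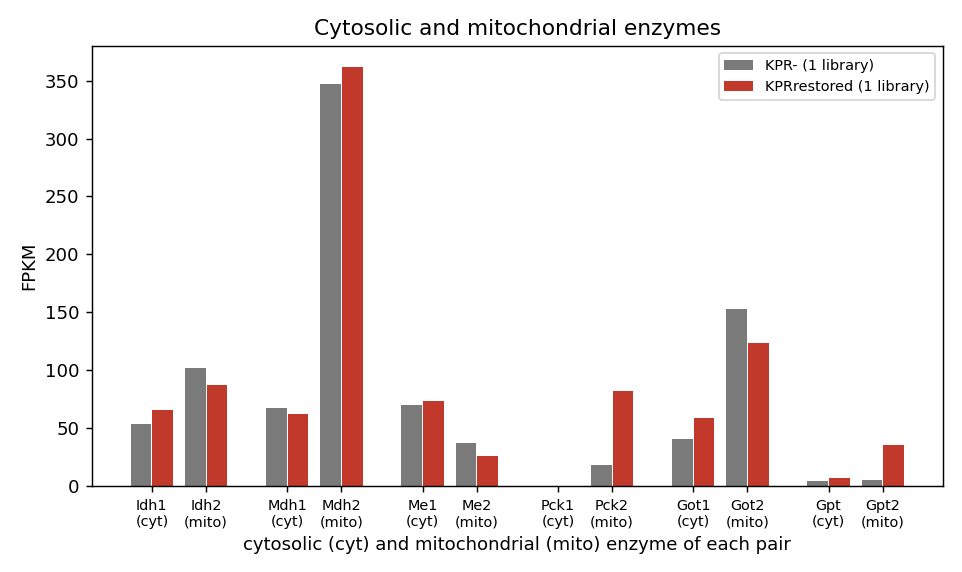
FPKM of the cytosolic and the mitochondrial enzyme of 6 reactions, with grey bars for the KPR- library and red bars for the KPRrestored library, on a linear axis from 0. *Pck2* and *Gpt2* are far higher in the KPRrestored library, *Pck1* is at 0 in both, and *Idh2*, *Me2* and *Got2* are lower.

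Glycolysis and oxidative phosphorylation, the pathways before and after the cycle, were taken for comparison, with no test of a difference between lists. Of 17 glycolytic genes, 3 (17.6%) were higher and 0 were lower by the threshold, beside 12.1% and 9.29% of the 11231 genes, and their median log2 difference was 0.055. The largest increases were those of *Eno2*, an enolase of neurons, at 0.799 and 2.20 FPKM, and *Pfkp*, a phosphofructokinase, at 10.8 and 19.6 FPKM. *Eno2* had only about 45 and 128 fragments. With the shortest coding transcript its counting interval was -0.51 to 3.41, which held 0. Of 70 oxidative phosphorylation genes, 2 (2.86%) were higher and 1 (1.43%) was lower, with a median of 0.038. These were *Ndufs5* of complex I, at 2.02 and 9.25 FPKM with only about 14 and 66 fragments, *Uqcrq* of complex III, at 224 and 401 FPKM, and *Ndufb5* of complex I, at 43.5 and 30.5 FPKM.

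**Figure D4:**
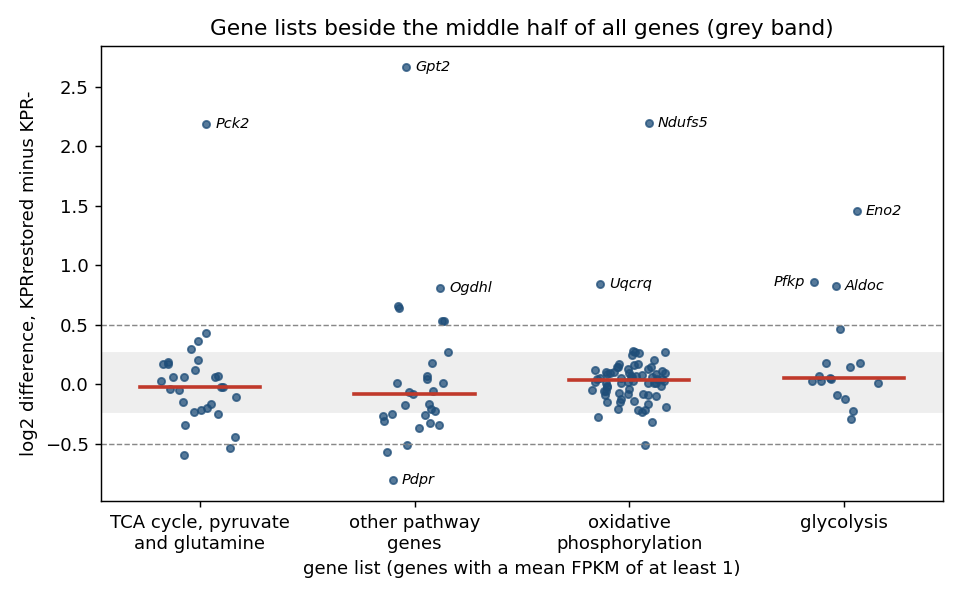
Log2 difference, KPRrestored minus KPR-, of each gene whose mean FPKM reached 1 in 4 lists, with red lines for the medians, dashed lines for the threshold of 0.5 and a grey band for the range between the quartiles of all 11231 such genes. *Pck2* is at 2.19, *Gpt2* at 2.67, *Ndufs5* at 2.19 and *Eno2* at 1.46, far above the band. *Ndufs5* rests on only about 14 and 66 fragments, and *Eno2* on about 45 and 128.

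Transcript length moved with the differences. The length taken was that of the longest transcript linked to RefSeq or, where none was linked, of the longest. Across the 29 genes, Spearman's rho between the log2 difference and this length was -0.325, and without *Pck2* it was -0.435 (28 genes). Over 11181 genes whose mean FPKM reached 1 it was -0.214. The genes share the same libraries and are not independent, and the part of length in the lower levels of genes such as *Ogdh* and *Suclg2* was not tested. In addition, 7 of the 29 genes overlap exons of a gene on the opposite strand, the largest shares being 23.1% of the exonic bases of *Mpc1* and 16.1% of those of *Pdha1*. For *Pck2* the overlap was 53 bases, 0.679% of its exonic bases. Whether strand was used in the counting is not given in the sources used here. *Mpc1* also has a pseudogene that carries its name, *Mpc1-ps*, so its level is uncertain. Pseudogenes under other names were not searched for any of the 29 genes.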

How the data were processed

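Poly(A) RNA from 1 KPR- and 1 KPRrestored library was sequenced using a directional kit with paired-end reads. The authors trimmed the reads and filtered them by quality, aligned them to mm10 (the build in the submitters' processing notes) using TopHat, and estimated the deposited FPKM values using Cufflinks. Versions and the annotation are not given in the sources used here. The paper also names read counts processed using EdgeR, which were not used here.

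The 29 genes and all lists were chosen with earlier results of these data known. Log2(FPKM + 0.005) was compared with a threshold of 0.5, which understates differences of genes near the pseudocount. So small a pseudocount also lets genes of low level pass more easily than a larger one. The threshold was passed by 6195 genes, against 1977 with a pseudocount of 1 FPKM. All 29 genes were named, as were genes of the other pathway list with a mean FPKM of at least 1 that passed the threshold and the 2 largest increases and decreases past the threshold in the other lists. Other genes named for completeness, namely *Atf4*, *Gls2*, *Got2*, *Sdha*, *Sdhb*, *Sdhc*, *Sdhd*, *Pdk4*, *Me1*, *Me3* and *Pck1*, fell outside this rule. Some genes of the lists are not reported here. Sequences were shown for the gene with the largest difference and its paralog, and the short windows around matches were chosen after values were seen.

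Depth and mean fragment length (210 bases) were estimated from the steps of low FPKM values of genes with a single transcript length in GENCODE M21 (GRCm38). Of the low estimates, 80.3% of 538 in KPR- and 82.8% of 551 in KPRrestored lay within 0.1 of a whole number. Fragments per gene were estimated with the longest transcript linked to RefSeq, or the longest where none was linked, and rounded. From these, 95% Clopper-Pearson intervals were computed, which cover counting error only. Of the gene symbols, 22156 matched GENCODE directly and 673 through a synonym. Promoters came from RefSeq (GRCm38.p6). The scripts were tested on simulated data. Alternatives were other pseudocounts, scalings, thresholds, filters and transcript lengths. Computation was in Python 3.11.15 with scipy 1.17.1, pandas 2.3.3 and numpy 2.4.6, and figures were drawn with matplotlib 3.10.9.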

Additional observations from a re-analysis of the deposited data

How the results depend on the processing

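The calls of *Pck2* as higher and *Suclg2* and *Me2* as lower, and the signs of all 29 genes, were the same with pseudocounts of 0.1 and 1 FPKM and with scaling to the same FPKM total, to the same upper quartile or to the median gene, and the largest move of a difference was 0.0854. The median of the 29 genes was -0.021, and -0.027, -0.041 and -0.029 under those 3 scalings. With a pseudocount of 1 FPKM, 4 rather than 6 of the other pathway genes were higher and 2 rather than 4 were lower (*Gpt*, *Pdk2*, *Nnt* and *Pdk4* no longer passed), and 1977 rather than 6195 genes of the whole table passed the threshold. With a threshold of 1, *Pck2* was still called but 0 of the 29 genes were lower, 1 of the other pathway genes was higher and 1 was lower, and 3152 genes of the table passed. With only genes of a mean FPKM of at least 1, 2401 genes passed. With the shortest coding transcript, the counting intervals of *Sucla2*, *Mdh1*, *Mdh2* and *Slc25a11* held 0, since fewer fragments were then estimated. No paired analysis was possible because each condition has 1 library, and variation between cultures could not be measured.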
